A study of Ovis aries with 16 samples.

Results

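Hay-only regions are stretches of the sheep genome in which a methylation peak was called in at least 3 of 8 fetuses from hay-fed ewes and in 0 of 8 fetuses from corn-fed ewes. They were found by pooling the peaks of all 16 fetuses on chromosomes 1 to 26 and merging peaks that shared at least 1 bp. The rule kept 7391 of 678678 merged regions, or 1.09%. Peak presence in the diets chose these regions, so their presence in hay and absence in corn is a description and was not tested.

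Longissimus dorsi (LD) muscle, the long muscle of the back, was taken in late gestation from fetuses of Polypay ewes fed either alfalfa haylage (Hay) or limited corn with some haylage (Corn) from mid-gestation, at equal metabolizable energy. Each diet was represented by 8 fetuses, all of the hay fetuses and most of the corn fetuses were sampled together with their co-twin, and the labels do not say which samples shared a dam, a sex or a sequencing lane. Fetuses are called here by their sample numbers, which are 3, 5, 8, 10, 11, 12, 15 and 16 for hay and 1, 2, 4, 6, 7, 9, 13 and 14 for corn. P-values below measure the spread between fetuses as if they were independent, which twins are not.

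In mammals most methylated cytosines are followed by a guanine, at positions called CpG sites. The methyl group comes from S-adenosylmethionine, which is made from methionine and depends on dietary methionine, choline and folate. A methyl-binding domain protein holds DNA fragments that carry several methylated CpG sites, so sequencing of the held fragments gives peaks where methylated CpG sites lie close together. A peak says that reads piled up beyond what the caller's Poisson model expected. Absence of a peak says that the pile did not reach that level, which can reflect few reads as well as little methylation.

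The files hold for each peak a position (Oar_v3.1) and 1 value between 0 and about 0.14, taken as a Poisson P-value because of that range. Its −log10, called the score, is 1.30 where the P-value is 0.05 and grows with the strength of the peak. Read depth is unknown. Over chromosomes 1 to 26 the hay fetuses had 251969 to 506610 peaks and the corn fetuses 309585 to 481662, and their means of 391960 ± 85747 and 383081 ± 66356 (SD, n = 8 each) differed by less than the spread (exact permutation test, two-sided, P = 0.819, adjusted P = 0.819 over 3 measures). Peaks had median widths in hay of 284 ± 37.9 bp (SD, n = 8) against 354 ± 93.2 bp (SD, n = 8) in corn, a difference that did not pass the test (exact permutation test, P = 0.0720, adjusted P = 0.133). Scores had a mean median of 1.45 ± 0.0855 (SD, 8 fetuses) in the hay group, not separable by the test from the 1.54 ± 0.115 (SD, 8 fetuses) of the corn group (exact permutation test, P = 0.0889, adjusted P = 0.133). No 2 fetuses had the same number of peaks.

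Most hay-only regions sat at the threshold of the rule. Exactly 3 hay fetuses had a peak in 5736 of them (77.6%), 4 in 1340, 5 in 275, 6 in 37 and 7 in 3. None was called in all 8 hay fetuses. The mirrored rule, at least 3 corn fetuses and 0 hay fetuses, kept 4188 corn-only regions, or 0.617% of all merged regions. Of the corn-only regions, 2913 were called in exactly 3 corn fetuses and 3 in all 8. Among the 414599 regions called in 3 or more fetuses of any diet, 1.78% were hay-only and 1.01% corn-only. The order of the diets depended on how many fetuses were asked for. At 3 or more fetuses the hay-only regions were 1.76 times as many as the corn-only regions, and at 5 or more there were 315 hay-only regions (0.0464% of all) against 399 corn-only regions (0.0588%). It depended on single fetuses as well. Without hay fetus 15 there were 3549 hay-only and 6719 corn-only regions, and without corn fetus 7 there were 13791 and 2563. Leaving out hay fetus 3, 8 or 16 gave 4721, 4285 and 4246 hay-only regions, and leaving out corn fetus 4 gave 12140. Corn-only regions were the more numerous without hay fetus 3, 5, 8, 15 or 16, when hay-only regions needed a peak in 3 of 7 fetuses. At the same time corn-only regions had to be without a peak in only 7 hay fetuses. The direction of these changes follows from the rule, since leaving out a fetus makes the condition harder for its own diet and easier for the other. Every omission moved both counts that way, and only the size of the change differed between fetuses. Just outside the rule lay 22667 regions seen in 2 fetuses, both hay, and 10207 seen in 3 hay fetuses and 1 corn fetus. Their median widths were 250 bp and 393 bp, against 312 bp for the hay-only regions called in exactly 3 fetuses.

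**Figure D1:**
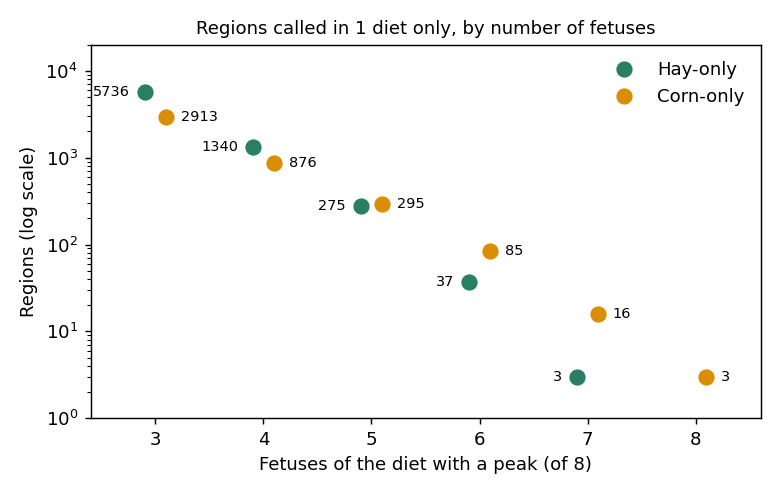
Number of regions (log scale) against the number of fetuses with a peak, for hay-only regions (green) and corn-only regions (orange), with each count written beside its point. Hay-only regions outnumber corn-only regions at 3 and 4 fetuses and are fewer at 5, 6, 7 and 8.

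The hay fetuses carried very unequal numbers of hay-only regions. Fetus 15 had a peak in 5374 of the 7391, fetus 8 in 4469, fetus 16 in 4440 and fetus 3 in 3814. Fetus 12 had a peak in 2845 and fetus 5 in 2272. Fetus 10 carried only 600 and fetus 11 only 372. The mean was 3023 ± 1842 (SD, n = 8). Fetus 15 thus held 72.7% of the members and fetus 11 only 5.03%. Corn fetuses carried 1104 to 2663 of the corn-only regions.

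The pair of fetuses with the fewest members also had the fewest peaks. Fetuses 10 and 11 had 290089 and 251969 peaks, the lowest numbers in hay, and fetus 15 had the highest, 506610. The order by members was the order by peak number except for fetuses 5 and 12, which had 383670 and 375799 peaks and 2272 and 2845 members. The 5 fetuses with the narrowest peaks carried the most members, but fetuses 3 and 12, the narrowest, carried fewer than 8, 15 and 16, and fetus 5, the widest, carried more than 10 and 11. The median width of all peaks was 250 bp in fetuses 3 and 12, 251 bp in fetus 16, 264 bp in fetus 15 and 282 bp in fetus 8, and it was 302 bp, 322 bp and 351 bp in fetuses 10, 11 and 5. The part of peak number and peak width in the membership was not tested. Hay-only regions carried by no other fetuses than 3, 8, 12, 15 and 16 numbered 4585, or 62% of the total.

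**Figure D2:**
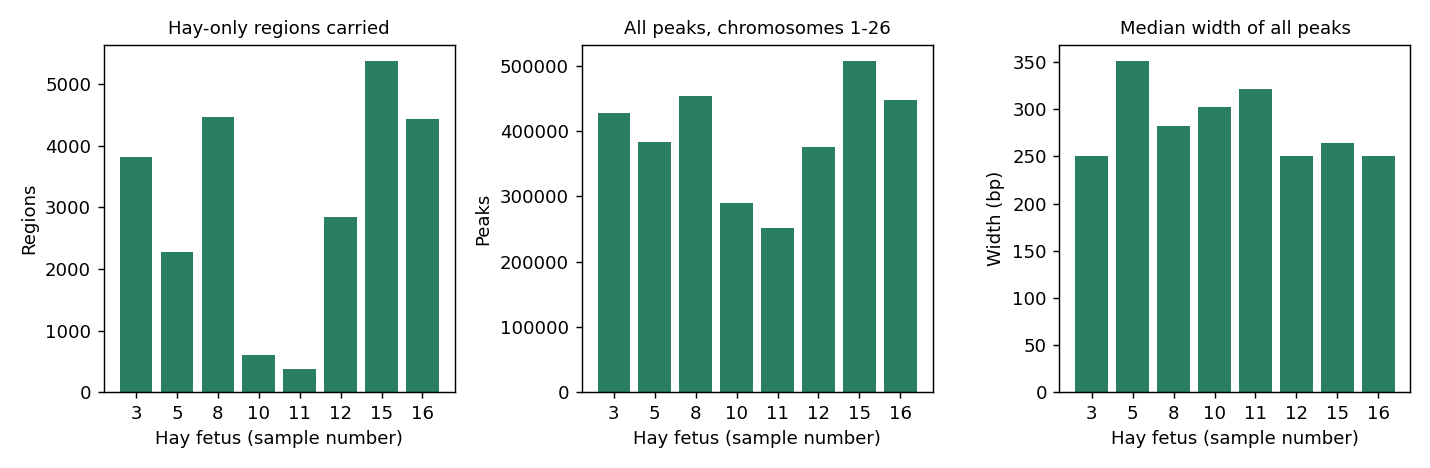
Hay-only regions carried (left), all peaks on chromosomes 1 to 26 (middle) and median width of all peaks in bp (right) for each of the 8 hay fetuses, with 1 bar per fetus. Fetuses 10 and 11 carry 600 and 372 hay-only regions and have the fewest peaks, and the 5 fetuses with the narrowest peaks carry the most members.

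No single trio of fetuses made up the set. All 56 possible combinations of exactly 3 hay fetuses occurred, the most frequent being 8, 15 and 16 with 804 regions, followed by 3, 15 and 16 with 613 and 3, 8 and 15 with 587. The pair with most members in common was 15 and 16, with 3133, which is 46.9% of the members that either had. Fetuses 10 and 11 had 81 in common. Over all merged regions, fetuses 10 and 11 had 60.7% of their combined regions in common, and fetuses 15 and 16 had 51.5%.

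Peaks at hay-only regions were weak. Their median P-value was 0.0641, against 0.0340 over all peaks, and 32.9% had P under 0.05 against 63.4% of all peaks. Only 1.76% had P under 0.01, against 25.9% of all peaks. In each of the 8 hay fetuses the median P-value at hay-only regions (0.0576 to 0.0878) was higher than that fetus's median over all of its peaks (0.0246 to 0.0437). By this median, fetus 11 had the weakest member peaks and fetus 15 the strongest. On chromosome 1 the same low scores recurred within a fetus and differed between fetuses, such as 0.885 in fetus 3 and 1.13 in fetus 12. Low scores of different fetuses may therefore not be on the same scale. At 201 hay-only regions (2.72%) every carrying fetus had P under 0.05. Few carriers and weak peaks went together in either diet. Among regions called in exactly 3 fetuses, the median P-value was 0.0653 at hay-only regions, 0.0659 at corn-only regions and 0.0646 at the 39792 regions with peaks in both diets.

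Hay-only regions were also narrow, with a median of 328 bp, quartiles of 261 and 510.5 bp and a range of 125 to 2973 bp. The median over all merged regions was 444 bp, and over regions called in 3 or more fetuses it was 830 bp. Merged regions widen as more fetuses add peaks, so regions called in the same number of fetuses were set side by side. At exactly 3 fetuses the median width was 312 bp for hay-only, 288 bp for corn-only and 308 bp for regions of both diets. At exactly 4 fetuses it was 385 bp, 351 bp and 377 bp in the same order. The single member peaks had a median width of 197 bp, less than the 250 bp fragment length given to the caller. All hay-only regions together covered 2.98 Mb of the 495 Mb under merged regions.

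The same rule was applied after weak peaks had been removed, and the balance between the diets shifted. With the peaks at or above the 25th percentile of score, 4936 regions were hay-only and 4541 corn-only. These were 0.911% and 0.838% of the 541665 merged regions that remained. When each fetus was limited to its 251969 highest-scoring peaks, the number in fetus 11, the counts were 4611 and 4286. This limit removed no peak of fetus 11 and cut the fetuses at unequal strengths. The P-value of the weakest peak kept ran from 0.0324 to 0.132 between fetuses. Their shares were 0.992% and 0.922% of 464727 merged regions. With P under 0.01, 1187 regions were hay-only and 6527 corn-only, or 0.475% and 2.61% of 249994 merged regions. The hay share of all regions called in 1 diet only was 63.8% with all peaks, 52.1% above the 25th percentile, 51.8% with equal numbers and 15.4% with P under 0.01. A filter also exchanged the regions themselves, since a weak corn peak that is removed turns a shared region into a hay-only one. Of the 4611 hay-only regions with equal peak numbers, 504 (10.9%) overlapped one of the 7391, and 503 of the 7391 (6.81%) were overlapped. With P under 0.01 only 3 did. Fetuses 10 and 11 still carried the fewest hay-only regions with equal peak numbers, 909 and 799, against 2703 in fetus 15.

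**Figure D3:**
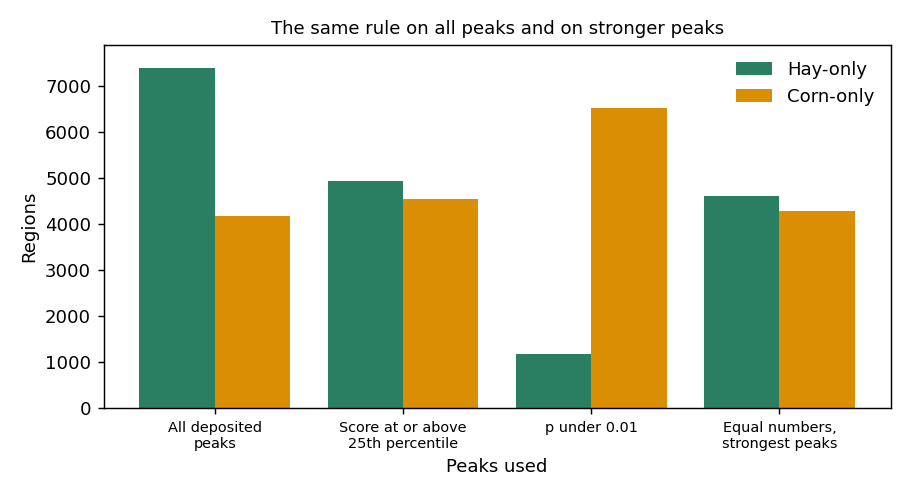
Number of hay-only regions (green bars) and corn-only regions (orange bars) when the same rule was applied to all deposited peaks, to peaks at or above the 25th percentile of score, to peaks with P under 0.01 and to equal numbers of the strongest peaks per fetus. Hay-only regions are the more numerous in the first set (7391 against 4188) and the less numerous with P under 0.01 (1187 against 6527).

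Whether regions chosen in some hay fetuses were again called in other hay fetuses was tested in fetuses not used for the choice. The bounds of the merged regions, however, came from the peaks of all 16 fetuses, the tested ones included. Co-twins may also lie on both sides of the division, so choosing and tested fetuses may not have been independent. Regions with a peak in at least 3 of the 4 lowest-numbered hay fetuses (3, 5, 8 and 10) and in 0 of the 4 lowest-numbered corn fetuses (1, 2, 4 and 6) numbered 3245. Of these, the other hay fetuses had a peak in 10.3% (fetus 11), 31.6% (fetus 12), 52.5% (fetus 15) and 42.1% (fetus 16). The other corn fetuses had a peak in 60.4% (fetus 7), 20.5% (fetus 9), 38.7% (fetus 13) and 30.6% (fetus 14). The diets overlapped, and the highest share was that of a corn fetus. The means were 34.1 ± 18% (SD, n = 4) in hay and 37.6 ± 17% (SD, n = 4) in corn, a difference of -3.47 percentage points (exact permutation test, two-sided, P = 0.829, adjusted P = 0.829 over 4 tests).

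The exchange of the choosing and the tested fetuses gave 2837 hay-selected regions. They had a peak in 35.5% (fetus 3), 23.7% (fetus 5), 44.4% (fetus 8) and 6.70% (fetus 10) of cases in hay and in 19.8% (fetus 1), 10.2% (fetus 2), 46.6% (fetus 4) and 21.7% (fetus 6) in corn. Again the highest share was that of a corn fetus. The difference of the means was 3.0 percentage points (27.6 ± 16.3% against 24.6 ± 15.6%, SD, n = 4 each; exact permutation test, P = 0.829, adjusted P = 0.829). The smallest P-value that 4 against 4 fetuses allow is 0.0286. Corn fetuses 7 and 4 had the most peaks in corn, 481662 and 478574, and the median peak width of fetus 4 was 250 bp, as in hay fetuses 3 and 12.

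A fetus with many peaks can have a high share at any set of regions, so its share at corn-selected regions was subtracted from its share at hay-selected regions. With regions chosen in the lowest-numbered fetuses, the result was -0.518 ± 4.29 percentage points in hay and -5.16 ± 6.28 in corn (SD, n = 4 each; exact permutation test, P = 0.286, adjusted P = 0.829). With regions chosen in the other fetuses it was -17.6 ± 13.3 in hay and -21.1 ± 20 in corn (SD, n = 4 each; exact permutation test, P = 0.800, adjusted P = 0.829). Both differences were toward hay, by 4.65 and 3.47 points, and both were within the spread between fetuses. Leaving out corn fetus 4 raised them to 13.7 and 13.3 points (exact permutation test, P = 0.257 and P = 0.171). Leaving out hay fetus 3 turned both toward corn (-1.44 and -0.722 points), leaving out hay fetus 8 turned the first (-1.66) and leaving out corn fetus 6 turned the second (-0.666).

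**Figure D4:**
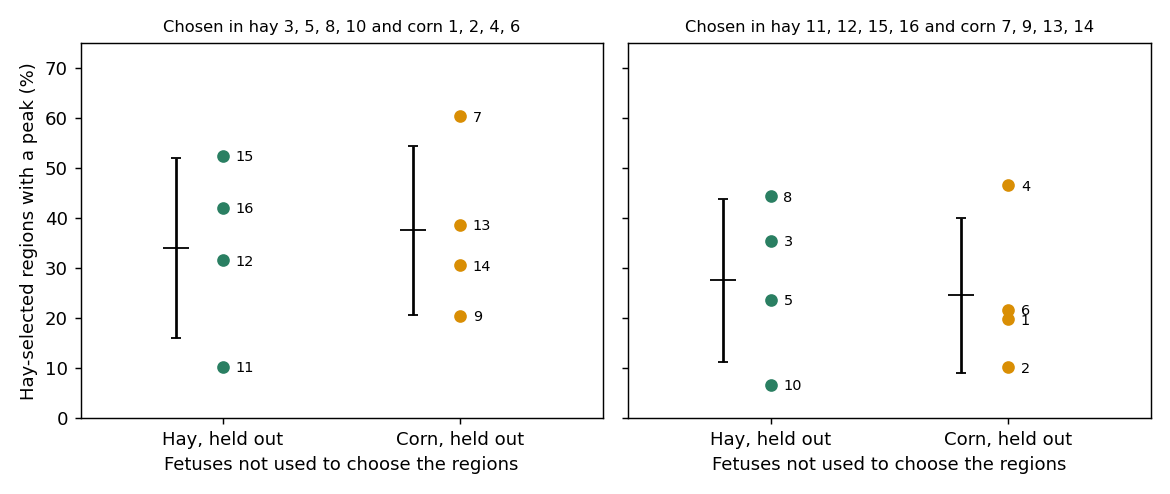
Share of hay-selected regions (%) with a peak in each fetus that was not used to choose them, by diet, with the sample number beside each point and the mean ± SD as a black bar (n = 4). The left panel shows regions chosen in hay 3, 5, 8, 10 and corn 1, 2, 4, 6, the right panel regions chosen in the other fetuses. Hay and corn overlap in both panels, and corn fetuses 7 (60.4%) and 4 (46.6%) are the highest.

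Hay-only regions lay on all 26 chromosomes, at 10.9 per 1000 merged regions over the genome. The lowest values were those of chromosomes 19 (7.95), 11 (8.22), 17 (8.30) and 18 (8.72), and the highest those of chromosomes 23 (13.8), 22 (13.5), 24 (13.2) and 7 (13.1). Chromosomes 19, 11, 17 and 18 held more corn-only regions per 1000 (8.60, 7.60, 7.50 and 7.20) than the genome as a whole (6.17). Hay-only regions outnumbered corn-only regions on 25 of 26 chromosomes, the exception being chromosome 19 with 136 against 147. The ratio of hay-only to corn-only regions ran from 0.925 on chromosome 19 to 2.71 on chromosome 23, with a median of 1.88. In each of the 8 hay fetuses members were rarer on chromosome 19 than on chromosome 23, for example 11.6 against 18 per 1000 of the regions of fetus 16 and 1.12 against 2.75 in fetus 11. These chromosomes were picked after the values were seen, and the members of the fetuses overlap.

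**Figure D5:**
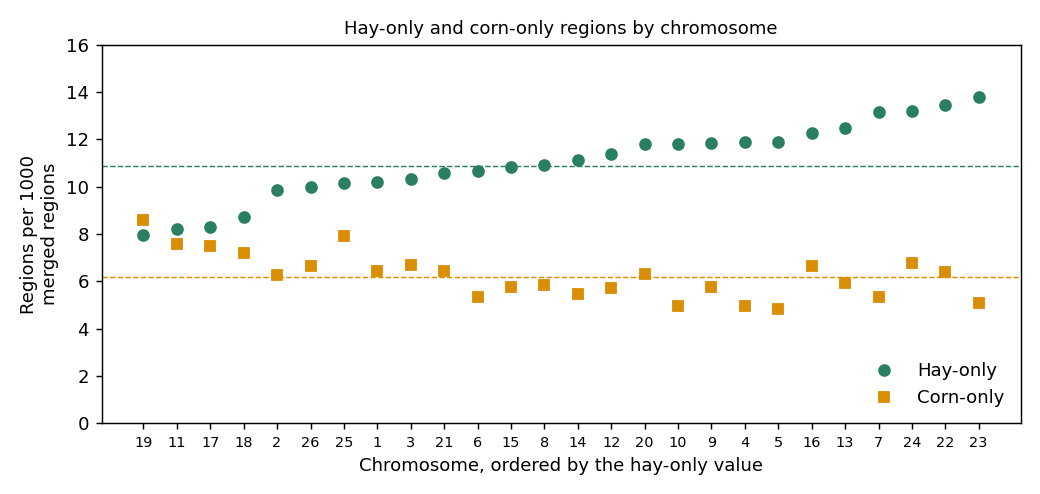
Hay-only (green circles) and corn-only (orange squares) regions per 1000 merged regions for each of the 26 chromosomes, ordered by the hay-only value, with dashed lines at the genome values of 10.9 and 6.17. Chromosomes 19, 11, 17 and 18 are lowest for hay-only regions and above the genome value for corn-only regions.

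Regions called in 1 diet only were rarer at the far end of chromosomes. In the last 2 Mb there were 6.04 hay-only and 2.93 corn-only regions per 1000, against 11 and 6.25 in the interior. In the first 2 Mb the values were 9.74 and 6.52. Chromosomes were taken to end at their last peak. Windows of 1 Mb were grouped by how many merged regions they held. Hay-only regions made up 10.7 per 1000 in the sparsest group (9 to 202 regions per window) and 10.4 in the fullest (347 to 515), with 11.3 in both groups between. Corn-only regions went from 9.30 to 4.89 per 1000 over the same windows.

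Hay-only regions lay beside each other more often than their share of the genome. Hay-only regions had 14780 direct neighbours, a region being counted once for each member it adjoins. Of these, 6.33% were hay-only themselves, against 1.09% of all merged regions, and 0.426% were corn-only, against 0.617%. Corn-only regions had the same feature, with 5.78% corn-only neighbours. The shares of all merged regions include regions called in fewer than 3 fetuses. Merging peaks up to 100 bp apart left 6550 hay-only regions, and how many neighbours were parts of 1 split stretch was not tested. Another hay-only region lay within 50 kb of 2643 members (35.8%), and 232 runs held 3 or more. For the less numerous corn-only regions the same share was 24.5%, with 56 such runs, and this share depends on how many regions a set holds. The longest run had 6 members on chromosome 4, as 3 close pairs from chr4:33205165-33205546 to chr4:33304405-33304724, every member being called in 3 or 4 hay fetuses. Fetuses 3 and 8 had a peak in all 6 of them, and fetuses 10, 11 and 16 in none. The 1 Mb windows with most members were on chromosome 21 from 39 to 40 Mb (13 of 396 regions), chromosome 9 from 79 to 80 Mb (12 of 370) and chromosome 10 from 35 to 36 Mb (12 of 432), and chromosome 20 from 46 to 47 Mb also had 12 (of 488). The nearest corn peak lay within 1 kb of 52.6% of members and within 250 bp of 25.5%, with a median distance of 909 bp. Only 160 members (2.16%) were over 10 kb from any corn peak. Distances from corn-only regions to the nearest hay peak were similar, with 54.5% within 1 kb and 30.7% within 250 bp. Their median was 803.5 bp, and 124 corn-only regions (2.96%) were over 10 kb from any hay peak.

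Regions next to members, not themselves hay-only, were compared with each fetus's share over all regions. In all 8 corn fetuses a peak was less frequent there, with differences of -5.23 to -3.96 percentage points. In hay the difference ranged from -3.17 to 0.308 percentage points, and the fetuses furthest below were 11 and 10. Corn-only regions were compared by another measure, the mean number of fetuses with a peak over all neighbours, members of the same set included. Beside corn-only regions it was 2.70 hay and 3.31 corn fetuses, and beside hay-only regions 3.23 hay and 2.77 corn fetuses. Over all regions it was 3.31 in each diet. Neighbours in the same set have no peak in the other diet by the rule, which lowers the mean of that diet. These neighbours were found through the members, so the values are a description and were not tested.

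The regions called in most hay fetuses are described next. At chr7:95825167-95826224, 1058 bp wide, 7 hay fetuses had a peak, with scores from 0.976 in fetus 10 to 1.72 in fetus 3, and only fetus 16 had none. At chr1:251881515-251882204 fetus 11 was the one without a peak, and the others scored between 1.08 and 1.5. At chr23:62188503-62189296 it was fetus 3, and the others scored 0.886 to 1.82. The strongest of those called in 6 hay fetuses, by median score, was chr7:83167162-83168336, with 1.97, 1.56, 2.01, 1.08, 2.40 and 1.40 in fetuses 3, 5, 8, 12, 15 and 16. Next came chr3:14059005-14059796, where fetus 12 scored 2.73 and fetus 5 scored 0.925, and chr6:67852587-67853370, where all 6 scored 1.18 to 1.63. Weak and stronger peaks occurred together at the rest. At chr8:63828830-63829116 fetus 5 reached 2.43 and fetus 10 had 1.04, at chr6:4957363-4958188 fetus 5 reached 2.61 and fetus 11 had 0.892, and the remaining 2, chr21:38431329-38431951 and chr15:35162742-35163907, peaked at 1.67 and 1.76.

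The strongest hay-only region by far was chr11:5774241-5774803, 563 bp wide. Fetuses 10, 11 and 16 had peaks there with scores of 7.93, 5.86 and 6.47, the strongest having a P-value of 1.18e-08, and no other fetus had a peak. Fetuses 10 and 11 are otherwise those with fewest members, and only 9 hay-only regions were carried by exactly these 3 fetuses. A second of these lay 8414 bp away at chr11:5783217-5783701, where the peaks of fetuses 10, 11 and 16 had P-values of 0.00152, 0.0200 and 0.0511. Between the 2, at chr11:5781456-5782001, the same 3 fetuses had the strongest peaks, with P-values of 0.00607, 0.0135 and 3.13e-05, and hay fetus 3 and corn fetuses 1 and 7 had weak ones, with P-values of 0.0564, 0.114 and 0.0737. Other regions between the 2 had other carriers. The region chr11:5774910-5775285, 107 bp from the strongest, was called in hay fetuses 8 and 15 and corn fetuses 1, 4, 6 and 7. The region chr11:5780895-5781324 was called in 5 hay fetuses, without 10 and 11, and in 5 corn fetuses. Only hay fetuses 11 and 16 had a peak at chr11:5782173-5782458. The region chr11:5783217-5783701 is also in the study's published list, treated below. At chr9:93121479-93121750 fetuses 10, 11 and 16 again carried the peak, with scores of 4.23, 1.67 and 3.16.

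Only 1 other member had P under 0.01 in every carrying fetus. It was the widest, chr22:50826741-50829713 with 2973 bp, with scores of 3.21, 3.03 and 2.73 in fetuses 3, 12 and 16. The next in width was chr19:60458582-60460845 with 2264 bp, with 3.84, 2.62 and 1.28 in fetuses 5, 15 and 16. Both lay where the called peaks of their chromosome end, at 50.8297 Mb on chromosome 22 and 60.4608 Mb on chromosome 19. Whether that position bears on their width or score was not tested. The others of the 5 widest, chr1:44532479-44534026, chr7:84807319-84808693 and chr11:5055628-5056994, measured 1548, 1375 and 1367 bp and reached scores of 2.12, 2.17 and 2.11. In the remaining 3 of the 5 regions with the highest single score, on chromosomes 1, 2 and 3, fetus 15 alone was strong, with 4.27, 4.14 and 3.92, and the other carriers scored 0.962 to 1.49.

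Some hay-only regions coincide with differentially methylated regions (DMRs) in the study's published list, which was made from reads of the same 16 fetuses and is therefore no independent evidence. The list holds 60 DMRs, of which 39 are higher in hay. By overlap, 27 hay-only regions (0.365% of 7391) lay at 26 of these 39, and 0 at DMRs listed as higher in corn. Members have no corn peak by the rule, which leaves little room for members at DMRs higher in corn. The share of all merged regions at listed DMRs is not given here, so nothing is read from these counts. Of the 27, 15 were called in exactly 3 hay fetuses. Fetus 15 had a peak in 21 of them, fetuses 3 and 16 in 17 each, fetus 8 in 16, fetus 5 in 11, fetus 12 in 8 and fetuses 10 and 11 in 5 each. The median of their median P-values was 0.0456, against 0.0633 over all members.

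Among these were regions in or beside genes of lipid signalling and lipid storage. LPAR3 encodes a receptor for lysophosphatidic acid, a signalling lipid. Of the 18 merged regions that overlapped the gene, 3 were hay-only. At chr1:61263544-61263972 fetuses 8, 10, 15 and 16 scored 1.29, 1.02, 1.1 and 1.41, and a few uncalled bases separated it from chr1:61263980-61264351, where fetuses 8, 15 and 16 scored 1.17, 1.24 and 1.38. The nearest corn peaks lay 6943 and 6564 bp away. The third was chr1:61279166-61279435 and had scores of 0.885, 1.53 and 1.69 in fetuses 3, 8 and 15. PLCB4 encodes a phospholipase C that acts downstream of G protein-coupled receptors. It held 2 hay-only regions among 163, chr13:1832872-1833103 with 1.38, 1.19 and 1.08 in fetuses 8, 15 and 16, and chr13:1811537-1812182 with 1.61, 1.32 and 0.989 in fetuses 12, 15 and 16. PLIN5 and PLIN4 encode perilipins, proteins that coat lipid droplets. The hay-only region beside them, chr5:17188921-17189308, had scores of 1.67, 1.31 and 1.90 in fetuses 3, 8 and 15, and the nearest corn peak was 402 bp away. The study also read methylation at single CpG sites of these DMRs, by bisulfite sequencing of pooled DNA. It found no significant diet difference at the PLCB4 DMR and significantly more methylation in hay over the LPAR3 DMR. Between the pools of female fetuses the LPAR3 difference was not significant. Some LPAR3 sites were significantly more methylated in hay, and another was more methylated in corn between the pools of male fetuses. Over the whole PLIN5-PLIN4 DMR the diets did not differ significantly, except between the pools of female fetuses, where hay was higher. Within that DMR, some sites were significantly more methylated in hay and another was significantly more methylated in corn.

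Other genes of the published list held members as well. FRMD3, which encodes a protein with a FERM domain, held chr2:36256878-36257657, with 1.20, 1.70, 1.6 and 1.84 in fetuses 5, 8, 10 and 16. TBC1D5, a GTPase-activating protein of endosomal traffic, held chr1:272395666-272396292, with 1.51, 1.26 and 1.42 in fetuses 3, 15 and 16. ALG5, an enzyme of protein N-glycosylation, held chr10:24943966-24944693, where fetuses 3, 12 and 15 scored 1.13, 1.17 and 1.18. AASS, which begins lysine breakdown, held chr4:86542263-86542607, where fetus 5 reached 1.77 and fetus 3 had 0.869, with a corn peak 142 bp away. MEGF11, a membrane protein with EGF-like repeats, held 4 members among 142 regions, of which chr7:12637830-12638506 scored 1.17 to 1.39 in fetuses 3, 8, 15 and 16. The unnamed gene ENSOARG00000026696 held 3 among 62. The 27 genes compared were overlapped by 26 members among 1443 merged regions. Of these, 17 members lay outside the listed DMRs, or 1.18% of the 1443 regions, a share near the 1.09% of all merged regions, so nothing is read from their number. They included 2 members among 91 regions of RAPGEF5, an exchange factor for Rap GTPases, 3 among 189 of SLC9A9, an endosomal sodium/proton exchanger, 2 among 56 of TBC1D19, 2 among 117 of NBEA and 1 among 67 of ADAMTS12. NBEA is a trafficking protein and ADAMTS12 an extracellular metalloprotease, and both carry DMRs listed as higher in corn. ADAMTSL1, PCOLCE2, PLIN4 and PLIN5 were overlapped by 0 members. The same 27 genes were overlapped by 8 corn-only regions, and nothing is read from this number either. TBC1D19 and SERBP1 had 2 each, and SLC9A9, PLCB4, TBC1D5 and PCOLCE2 had 1 each.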

How the data were processed

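Per the submitters' processing notes and the study's methods, Trimmomatic 0.33 trimmed the reads, BWA-mem 0.7.15 placed them on Oar_v3.1, duplicate reads were taken out with Picard 1.107, and ChIPseeqer (reads of 101 bp, fragments of 250 bp) called peaks for every fetus separately. The authors deposited 1 peak list per fetus, with positions and a column taken here as each peak's P-value. The column has no header, and its range gave this reading. No threshold or input control is stated in the sources used here, and read depth is unknown, so no interval that needs depth was computed. Diets came from the sample titles.

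Scores were −log10 of the deposited P-value, with 100 for P-values of 0. Widths count both end bases. Merging (peaks with 1 bp or more in common) and the rule were run in Python 3.11.15 with pandas 2.3.3 and numpy 2.4.6, tests in scipy 1.17.1 and figures in matplotlib 3.10.9. Merging, rule and held-out comparison were tested on simulated peak lists. Means were compared by two-sided exact permutation tests with Benjamini-Hochberg adjustment, at a threshold of 0.05. Alternatives covered merging distance, peak filters, the numbers in the rule, chromosome X, which fetuses chose the regions and each fetus left out.

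The members, lists and rules were chosen with earlier results of these data known. Named regions were the 10 called in most hay fetuses (ties by median score), the 5 widest, the 5 with the highest single score, the 3 fullest 1 Mb windows, the longest run within 50 kb and members at listed DMRs with a gene. Gene bounds and directions came from the study's list, whose fold changes and P-values were not used as values. No genome of Oar_v3.1 was used here, so no sequences are shown.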

Additional observations from a re-analysis of the deposited data

Results flagged for a closer look

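At the regions chosen in hay fetuses 11, 12, 15 and 16 against corn fetuses 7, 9, 13 and 14, corn fetus 4 stood apart from the other 3 tested corn fetuses. Its share of hay-selected regions with a peak exceeded its share of corn-selected regions by 8.81 percentage points, while corn fetuses 1, 2 and 6 had -31.0, -28.3 and -33.8. The gap to the nearest was above Dixon's critical value for 4 samples. Hay fetuses 3 and 8 had -5.26 and -7.59 and hay fetuses 5 and 10 had -32.3 and -25.2. The median peak width was 250 bp in corn fetus 4 and 295 to 518 bp in the other corn fetuses, and the part of peak width in this value was not tested. In all, 24 groups of values were examined and 1 was picked out, where chance picks about 1 in 20.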

How the results depend on the processing

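Merging peaks up to 100 bp apart changed the median width of hay-only regions to 372 bp, and up to 500 bp apart gave 4717 hay-only regions, 2411 corn-only regions and a width of 650 bp. The width was 526 bp above the 25th percentile of score, 914 bp with P under 0.01 (1187 hay-only and 6527 corn-only regions) and 665 bp with equal peak numbers (4611 hay-only regions). Asking for at least 2, 4 or 5 fetuses gave 30058, 1655 and 315 hay-only and 16568, 1275 and 399 corn-only regions, and allowing 1 fetus of the other diet gave 23015 and 15233. A distance of 10 kb in place of 50 kb put 17.5% of members near another. With 1 fetus left out at a time, hay-only regions numbered 3549 to 13791, corn-only regions 2563 to 6719, the median width was 317 to 351 bp and hay fetuses carried 1613 to 5782 on average. Corn-only regions moved by over 1.5 times without hay fetus 8 (6459), hay fetus 15 (6719) or corn fetus 7 (2563). In the fetuses that did not choose the regions, the hay minus corn difference in share was 0.125 points where 2 of 4 choosing fetuses sufficed (regions chosen in the lowest-numbered fetuses), and 6.07 and -6.53 points when fetuses were divided by alternate numbers, each opposite in sign to the reported value. With 1 fetus left out it ranged from -9.53 to 4.47 and from -2.62 to 10.3 points, without corn fetus 2 it was -1.90, without corn fetus 7 it was 3.89, and the difference of the subtracted shares ranged from -1.66 to 13.7 and from -0.722 to 13.3. Without hay fetus 3 the first of these was -1.44, and without corn fetus 6 the second was -0.666. With peaks of P under 0.01, the difference in share was -22.3 points for regions chosen in the lowest-numbered fetuses (exact permutation test, P = 0.0571). For regions chosen in the other fetuses it was 1.99 points (exact permutation test, P = 0.857). The same 2 differences were -8.23 and 3.58 points above the 25th percentile of score, and -5.59 and 0.864 with equal peak numbers. None of the 88 values over all settings had a P-value under 0.05 in the exact permutation test (lowest 0.0571). The causes were not tested. No paired analysis was possible between the diets, whose fetuses came from different dams in the study's list. Twins of a dam could not be modelled because the labels do not give the dam. A peak list without read counts limits every statement to whether a peak was called.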

Other observations

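On chromosome X, which the rule leaves out, 259 of 27433 merged regions (9.44 per 1000) met the same condition for hay and 182 (6.63 per 1000) for corn. The ratio of 1.42 lay within the range of the 26 other chromosomes. The sex of the numbered fetuses is not given.

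At least 1 carrier had P under 0.01 in 428 hay-only regions (5.79%), against 35.7% of all merged regions and 7.02% of corn-only regions. At exactly 3 fetuses the share was 4.76% for hay-only regions and 5.36% for regions of both diets. Of the 428, fetus 15 carried 348, fetus 8 carried 309 and fetuses 10 and 11 carried 29 and 20. The 3 most extreme P-values of any member, at chr11:5774241-5774803, were those of fetuses 10, 11 and 16.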
